A study of Homo sapiens with 43 samples.

Results

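The sites described here are p63 binding sites of LK2_DNp63 that carried the histone mark H3K27ac in LK2_DNp63 and in no library of its controls. LK2_DNp63 is a derivative of the lung squamous cell carcinoma line LK2, and the controls are LK2_GFP, a second derivative, and 2 libraries of unmodified LK2. A p63 peak on chromosomes 1 to 22 or X was taken when it overlapped an H3K27ac peak of LK2_DNp63 by at least 1 bp and overlapped no H3K27ac peak of LK2_GFP or of either LK2 library. Of 3159 p63 sites, 635 (20.1%) met this rule and are called newly acetylated. Another 1008 sites overlapped a control H3K27ac peak and are called already acetylated, and 1516 had an H3K27ac peak in none of the 4 lists and are called unacetylated. The rule therefore fixed the presence of p63 and the H3K27ac of LK2_DNp63, LK2_GFP and LK2 at these sites, and those values are given below as a description without a test.

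The transcription factor p63 belongs to the p53 family and maintains basal cells of stratified epithelia, and DNp63 is the usual name of the isoform that these cells and squamous carcinomas make. Sites bound by p63 often lie in enhancers, away from gene starts. H3K27ac is laid down at active promoters and enhancers. Sox2, a factor of progenitor cells, is frequently amplified in squamous carcinomas together with the region that holds the p63 gene, and Brn2 is known from the nervous system.

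ChIP-seq was made in 13 lines of this tumour type without modification and in the 2 derivatives, all kept in RPMI-1640 medium with serum, and 27 of the 43 labelled samples have a peak list. The labels do not say how the derivatives were made, whether each is 1 clone, or whether LK2_GFP carries anything beyond the name of a fluorescent protein. H3K27ac was profiled in all 15 lines and derivatives. HCC95, KNS62 and HCC2814 also had Sox2 ChIP and no Brn2 ChIP (here the Sox2 set, 3 lines), and Calu-1, EBC-1, HARA, HCC2279, HCC2450, LC-1/SQSF, NCI-H2887 and SQ-1 had H3K27ac ChIP alone (here the H3K27ac-only set, 8 lines). NCI-H520 and LK2 had both Sox2 and Brn2 ChIP. The derivatives had Sox2 ChIP, and p63 ChIP was analysed in LK2_DNp63 alone. Brn2 chromatin was cross-linked with an additional agent and digested with micrococcal nuclease, unlike the other chromatin. Which factors a line expresses is not part of these groupings.

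LK2_DNp63, LK2_GFP and the p63 list rest on 1 library each, so the arms have no replicate check. The files hold peaks and no read counts, so the depth of every list is unknown. The H3K27ac lists held 30149 peaks in LK2_DNp63, 33454 in LK2_GFP, and 30641 and 16470 in the libraries of LK2, and lists of the 12 other lines held 24619 to 43480. A peak reports the chromatin of a whole culture, in which more cells with the mark and more of the mark per cell cannot be told apart. The labels do not say that libraries came from separate cultures, and the spread that the p-values measure is that of these samples and may be technical.

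LK2_DNp63 had an H3K27ac peak at 1507 of the 3159 p63 sites (47.7%), LK2_GFP at 927 (29.3%), LK2 replicate 1 at 736 (23.3%) and LK2 replicate 2 at 507 (16.0%). LK2_DNp63 and LK2_GFP shared 824 acetylated p63 sites. A further 683 were acetylated in LK2_DNp63 and not in LK2_GFP, and 103 in LK2_GFP and not in LK2_DNp63. When each of the 4 lists was set against the other 3, the sites acetylated in that list alone numbered 635 (20.1%) for LK2_DNp63, 48 (1.52%) for LK2_GFP, and 22 (0.696%) and 7 (0.222%) for the LK2 libraries. Of all 40028 merged H3K27ac regions of the 4 lists, 16.6% lay in LK2_DNp63 alone, 11.5% in LK2_GFP alone, and 11.4% and 1.79% in 1 LK2 library alone. The 4 lists thus each had regions of their own, and the p63 sites among these lay mostly in the LK2_DNp63 list. The p63 list comes from LK2_DNp63 itself, so the 4 counts are not equal trials. Of the already acetylated sites, 872 of 1008 (86.5%) kept an H3K27ac peak in LK2_DNp63.

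Seen from the H3K27ac list, 6629 of the 30149 peaks of LK2_DNp63 (22.0%) overlapped no control peak. A p63 peak lay in 721 of these (10.9%), against 969 of the 23520 peaks shared with a control (4.12%). The other 5908 new H3K27ac peaks held no p63 peak, and they serve below as a comparison set. Their absence from the controls covers the whole H3K27ac peak, whereas at newly acetylated sites it covers the p63 peak alone. Of the newly acetylated p63 sites, 605 lay over a new H3K27ac peak, and 36 lay over an LK2_DNp63 peak that reached a control peak outside the p63 site.

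The H3K27ac peaks under newly acetylated sites ranked near the middle of the LK2_DNp63 list. Scores are the authors' own values per peak and are used here only as ranks within a list, where the percentile is the share of the list that scores lower. The median percentile of these peaks was 41.5 at newly acetylated sites, against 70.1 at already acetylated sites and 22.2 for new H3K27ac peaks without p63. Their median width was 779 bp at newly acetylated sites, against 1351 bp at already acetylated sites, 558 bp for new peaks without p63 and 864 bp in the whole list. At 107 of the 635 sites the p63 peak touched more than 1 H3K27ac peak of LK2_DNp63.

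The mark was narrow in LK2_DNp63 and broad in most other lines that carried it. In LK2_DNp63 an H3K27ac peak covered the centre of the p63 peak at 62.8% of newly acetylated sites, and 59.7% and 58.3% were covered 500 bp to either side. The share was 20.5% and 19.7% at 1 kb, and 8.03% and 8.50% at 2 kb. HCC95 covered the centre at 58.7% of the sites and still covered 44.6% and 44.3% at 1 kb. Coverage was lower at the centre than beside it in LK2_DNp63, where 69.4% and 70.4% of sites were covered at 200 bp to either side, and in HCC2814, with 29.0% at the centre against 33.2% and 35.9% at 200 bp. Where they carried the mark, the peaks at newly acetylated sites had a median width of 2463 bp in HCC95, 2126 bp in KNS62 and 1084 bp in HCC2814, against 1396, 1310 and 811 bp in the whole list of the same line. Peaks at already acetylated sites had 1846, 1830 and 1166 bp in these lines, also above the whole list. In HCC2814 they were wider than those at newly acetylated sites. A long peak meets a site more easily than a short one. Widths also depend on library and peak caller and were not tested.

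**Figure D1:**
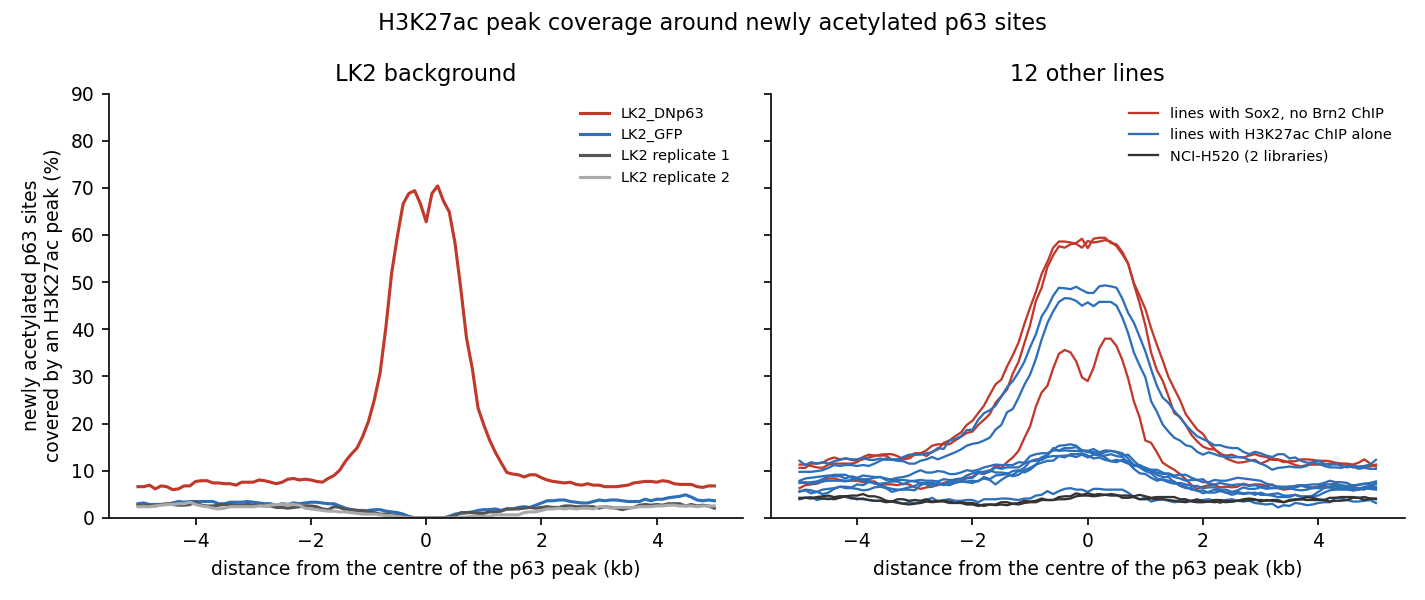
Percentage of the 635 newly acetylated p63 sites covered by an H3K27ac peak (vertical axis) by distance from the centre of the p63 peak in kb (horizontal axis). On the left are LK2_DNp63, LK2_GFP and both LK2 libraries, whose values at the centre follow from the rule; on the right are the 12 other lines, of which HCC95, KNS62, LC-1/SQSF, HARA and HCC2814 stand above the other 7.

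Whether the newly acetylated sites are acetylated in lines without the derivative was asked in the 12 unmodified lines that the rule did not use. They were acetylated in 31.3% ± 22.9 of cases (SD, n = 12 lines), against 16.2% ± 13.1 of unacetylated sites and 46.7% ± 19.3 of already acetylated sites. NCI-H520 enters as the mean of its libraries.

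The highest shares of newly acetylated sites were those of KNS62, at 64.9% of sites against 30.3% of all 114125 merged H3K27ac regions of the 13 lines, and of HCC95, at 64.7% against 25.2%. Next came LC-1/SQSF with 53.7% of sites (26.3% of merged regions), HARA with 52.3% (26.5%) and HCC2814 with 45.5% (18.6%). In these 5 lines the newly acetylated sites exceeded the share of all merged regions. In the other lines they lay below it. Calu-1 had 17.3% of sites (29.3% of merged regions), SQ-1 had 16.9% (24.3%) and EBC-1 had 16.2% (24.4%). HCC2279 had 15.1% (28.7%), HCC2450 had 15.0% (28.2%) and NCI-H2887 had 7.72% (22.6%). NCI-H520, which like LK2 had Brn2 ChIP, had 34 and 41 of the 635 sites in its libraries (mean 5.91%), against 18.6% and 21.3% of merged regions. Neighbours in this order, such as KNS62 and HCC95, LC-1/SQSF and HARA, HARA and HCC2814, the lines Calu-1, SQ-1, EBC-1, HCC2279 and HCC2450, or NCI-H2887 and NCI-H520, had overlapping Wilson intervals, and no order is read within these groups. Those intervals cover counting error over sites and not the spread between libraries of a line, so the order between groups was not tested either. Merged regions differ in width from p63 sites, so that these pairs of values describe the lines and are not a test.

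In every one of the 12 lines the newly acetylated sites were acetylated more often than the unacetylated sites. The difference was 15.1 percentage points on average (12 of 12 lines above 0, two-sided permutation test by sign flips over lines, p = 4.88e-04, the smallest that 12 lines can give, Benjamini-Hochberg adjusted p = 0.00122 over 5 tests). In HCC95 it was 64.7% of newly acetylated sites against 36.3% of unacetylated sites. In NCI-H520 it was 5.91% against 3.10%. As a ratio of newly acetylated to unacetylated sites, the lines ran from 1.62 in KNS62 to 2.57 in HCC2814. Against the already acetylated sites the order was the other way round in all 12 lines, with a mean difference of -15.4 percentage points (0 of 12 lines above 0, permutation p = 4.88e-04, adjusted p = 0.00122). This difference was small in the Sox2 set, at -5.55 percentage points ± 2.29 (SD, n = 3 lines), and -15.3 ± 3.63 in the H3K27ac-only set (n = 8 lines). In NCI-H520 the mean share was 5.91% of newly acetylated sites, against 52.2% of already acetylated sites. The newly acetylated sites were chosen for H3K27ac in LK2_DNp63, and the unacetylated sites for its absence from all 4 lists. Already acetylated sites, chosen for H3K27ac in LK2 or LK2_GFP, also lay above unacetylated sites in mean share (46.7% against 16.2%). The test against unacetylated sites therefore cannot tell new acetylation from acetylation in any of the 4 lists. The difference between the sets in the contrast with already acetylated sites was not tested.

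**Figure D2:**
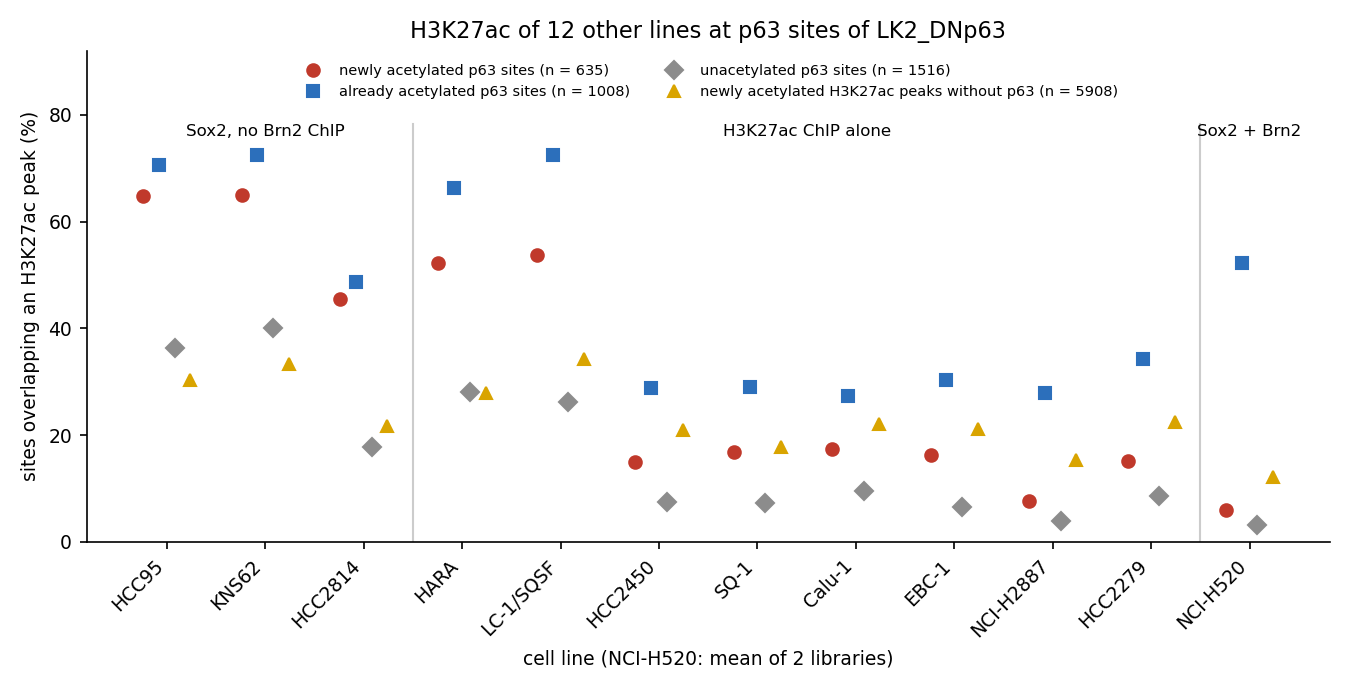
Percentage of sites that overlap an H3K27ac peak (vertical axis) in each of 12 unmodified lines (horizontal axis, grouped by the ChIP made in them), for newly acetylated, already acetylated and unacetylated p63 sites of LK2_DNp63 and for new H3K27ac peaks of LK2_DNp63 without p63. Newly acetylated sites lie between the other classes of p63 sites in every line, and lie above the new H3K27ac peaks without p63 in HCC95, KNS62, HCC2814, HARA and LC-1/SQSF alone.

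The Sox2 set and the H3K27ac-only set differed at newly acetylated sites. The share acetylated was 58.4% ± 11.1 in the Sox2 set (SD, n = 3 lines) and 24.3% ± 18.0 in the H3K27ac-only set (n = 8 lines), a difference of 34.1 percentage points (two-sided exact permutation test over lines, p = 0.0182, adjusted p = 0.0227; the smallest p possible was 0.00606). The sets overlapped, since HCC2814 (45.5%) lay below HARA (52.3%) and LC-1/SQSF (53.7%). Without HCC95 the difference was 30.9 and without KNS62 30.8 percentage points, and the adjusted p of the exact permutation test was 0.0833 in both cases, which ends the call. With a line left out, the smallest p possible is larger. The alternatives gave adjusted p between 0.00758 and 0.0833. The other classes of p63 sites lay in the same direction. Already acetylated sites had 63.9% ± 13.3 in the Sox2 set and 39.5% ± 18.6 in the H3K27ac-only set. Unacetylated sites had 31.3% ± 11.9 and 12.2% ± 9.35. These contrasts were not tested, and the difference is not read as particular to newly acetylated sites.

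New H3K27ac peaks without p63 were compared with newly acetylated p63 sites to see whether p63 sites stood apart among the regions gained in LK2_DNp63. The LK2_DNp63 peaks of this comparison set ranked lower (median percentile 22.2 against 41.5) and were narrower (558 against 779 bp). Presence of p63 and rank of the peak can therefore not be told apart here. Over 12 lines the difference was 7.97 percentage points (5 of 12 lines above 0, permutation p = 0.132, adjusted p = 0.132), so that no difference passed the test. The lines fell on both sides of 0. The p63 sites were the more often acetylated in HCC95 (64.7% against 30.4%), KNS62 (64.9% against 33.4%), HCC2814 (45.5% against 21.7%), HARA (52.3% against 27.8%) and LC-1/SQSF (53.7% against 34.2%). They were the less often acetylated in the other 7, for example in NCI-H2887 (7.72% against 15.4%) and HCC2279 (15.1% against 22.4%). New peaks without p63 varied less between lines, with 28.5% ± 6.06 in the Sox2 set (SD, n = 3) and 22.7% ± 5.88 in the H3K27ac-only set (n = 8).

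The excess of newly acetylated p63 sites over new peaks without p63 was itself compared between the sets. It was 29.9 percentage points ± 5.46 in the Sox2 set (SD, n = 3 lines, 3 of 3 above 0) and 1.53 ± 12.9 in the H3K27ac-only set (n = 8 lines), a difference of 28.3 (exact permutation p = 0.0121, adjusted p = 0.0202). HARA and LC-1/SQSF were the lines of the H3K27ac-only set with an excess above 0. Without HCC95 this difference was 26.1 and without KNS62 27.5 percentage points, with an adjusted p of 0.0741 in both exact permutation tests, and the call then ended. The alternatives gave adjusted p between 0.0101 and 0.0741. This comparison between the sets was added with results in view. The new peaks without p63 were part of the plan, which was itself made with earlier results of these data known.

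Site by site, a newly acetylated site was acetylated in a median of 4 and a mean of 3.77 of the 12 lines, against a median of 5 for already acetylated and of 1 for unacetylated sites. In no line at all were 115 sites acetylated (18.1%), against 70 already acetylated sites (6.94%) and 633 unacetylated sites (41.8%). Only 6 newly acetylated sites were acetylated in all 12 lines, against 122 already acetylated sites. Among newly acetylated sites the commonest number of lines after 0 was 5, with 100 sites (15.7%).

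The 635 sites showed 161 different combinations of lines. After the sites acetylated in no line, the commonest combination was exactly HCC95, KNS62, HCC2814, HARA and LC-1/SQSF. It was found at 84 newly acetylated sites (13.2%), against 29 already acetylated sites (2.88%) and 75 unacetylated sites (4.95%). HCC95, KNS62, HARA and LC-1/SQSF without HCC2814 followed with 22 sites (3.46%), KNS62 alone with 20, and HCC95 alone with 19. All 3 lines of the Sox2 set were acetylated at 255 sites (40.2%), against 450 already acetylated sites (44.6%) and 211 unacetylated sites (13.9%). Sites acetylated in the H3K27ac-only set and in no line of the Sox2 set numbered 35 (5.51%), against 7.44% of already acetylated and 7.78% of unacetylated sites. NCI-H520 had the mark at 52 sites in at least 1 library (8.19%), and at 23 in both. Some neighbouring sites lie under the same H3K27ac peak, and these counts describe the sites without a test.

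**Figure D3:**
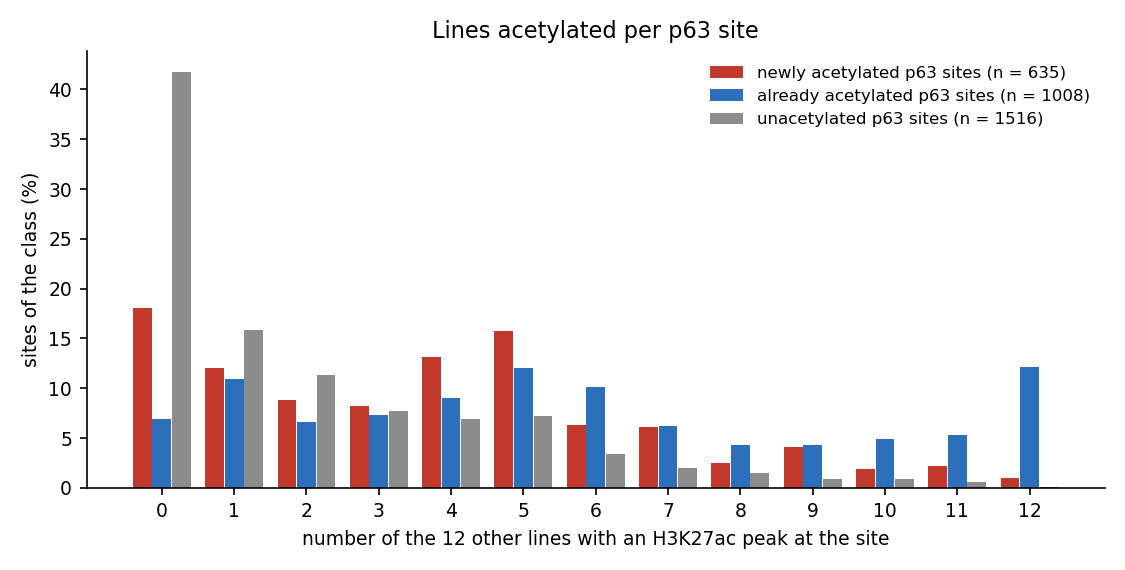
Number of the 12 other lines with an H3K27ac peak at a p63 site (horizontal axis) against the percentage of the sites of each class (vertical axis). Newly acetylated sites peak at 0 and again at 4 and 5 lines, unacetylated sites lie mostly at 0 and 1, and already acetylated sites alone have a further peak at 12 lines.

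Among the 6 sites acetylated in all 12 lines, the highest p63 score lay at chr15:92409895-92410681 (build hg19, as all positions here), which ranked 386 of 3159 in the p63 list. Next was chr12:109232071-109232619 (rank 799), which also held Sox2 peaks of LK2_DNp63, HCC95, KNS62 and HCC2814. The site at chr11:65261030-65261764 (rank 2950) lay 135 bp from a control H3K27ac peak. At chr22:36725316-36725907 (rank 76) and chr2:113449830-113450692 (rank 78) all of the 12 lines but NCI-H520 were acetylated. Sites acetylated in many lines were therefore found at all levels of p63 score.

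At the other end, the highest-scored sites that were acetylated in LK2_DNp63 and in none of the 12 lines were chr2:6933893-6934444 (p63 rank 42) and chr3:139434252-139435271 (rank 49). The third, chr2:158969926-158970888 (rank 113), held Sox2 peaks of LK2_DNp63, LK2_GFP and LK2. The nearest control H3K27ac peak was 70788, 5346 and 76970 bp away from these sites.

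Sox2 peaks of the Sox2 set were frequent at newly acetylated sites. A Sox2 peak of HCC95 lay at 245 of the 635 sites (38.6%, Wilson 95% interval 34.9 to 42.4), against 25.1% (22.5 to 27.9) of already acetylated sites, 25.3% (23.2 to 27.6) of unacetylated sites, 9.21% of new H3K27ac peaks without p63 and 8.82% of all merged H3K27ac regions. For KNS62 the share was 17.6% (14.9 to 20.8) of newly acetylated sites, against 11.2% (9.41 to 13.3) of already acetylated sites, 10.2% (8.74 to 11.8) of unacetylated sites, 5.91% of new peaks without p63 and 6.27% of merged regions. For HCC2814 it was 18.3% (15.5 to 21.5) of newly acetylated sites, against 11.9% (10.0 to 14.1) of already acetylated sites, 9.43% (8.06 to 11) of unacetylated sites, 5.74% of new peaks without p63 and 4.88% of merged regions. In each of the 3 lines the interval of newly acetylated sites lay above those of the other classes of p63 sites. Newly acetylated sites also had higher p63 scores (median percentile 61.7, against 49.7 for already acetylated and 45.8 for unacetylated sites). Their HCC95 Sox2 share was 52.0% in the highest of 10 equal parts of the p63 list by score, and 32.6% in the lowest. The classes were not compared at equal score. All intervals cover counting error only, and 3 lines cannot give a p under 0.05, so the shares were not tested. A Sox2 peak of at least 1 of these lines lay at 289 sites (45.5%, 41.7 to 49.4), against 29.5% (26.7 to 32.4) of already acetylated and 30.1% (27.8 to 32.4) of unacetylated sites, and 56 sites (8.82%) held one in all 3.

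Sox2 peaks of NCI-H520 and LK2 were rare at these sites. NCI-H520 had one at 14 newly acetylated sites (2.20%, 1.32 to 3.67), against 12.1% of already acetylated sites, 1.91% of unacetylated sites and 6.91% of merged regions. LK2 had one at 13 newly acetylated sites (2.05%, 1.20 to 3.47), against 12.7% of already acetylated sites, 2.18% of unacetylated sites and 4.20% of merged regions. LK2_GFP had one at 28 newly acetylated sites (4.41%, 3.07 to 6.30), against 24.5% of already acetylated sites, 3.36% of unacetylated sites and 6.99% of merged regions. With an equal number of top H3K27ac peaks per list, which changes the sites, the LK2_GFP share was 10.4%. Newly acetylated and unacetylated sites had overlapping intervals in these 3 lists. Lack of H3K27ac in LK2 and LK2_GFP was part of the rule, so Sox2 of the same cells is not independent of it.

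LK2_DNp63 had a Sox2 peak at 74 newly acetylated sites (11.7%, 9.39 to 14.4), against 14.4% (12.4 to 16.7) of already acetylated sites, 5.47% (4.44 to 6.74) of unacetylated sites, 6.16% of new H3K27ac peaks without p63 and 2.60% of merged regions. Its Sox2 list was the shortest, with 4217 peaks against 12034 in LK2_GFP and 7611 in LK2. At 53 of the 74 sites (8.35% of all 635, 6.44 to 10.8) the Sox2 peak was in neither LK2_GFP nor LK2, against 1.79% (1.13 to 2.81) of already acetylated and 3.10% (2.34 to 4.10) of unacetylated sites. In the whole list 656 of the 4217 peaks (15.6%) were absent from LK2_GFP and LK2. Of those, 49 (7.47%, 5.70 to 9.74) lay at newly acetylated sites, against 25 of the other 3561 (0.702%, 0.476 to 1.03). Unacetylated p63 sites held 45 of the 656 (6.86%, 5.17 to 9.06), against 37 of the 3561 (1.04%, 0.755 to 1.43), so Sox2 peaks without a counterpart in LK2_GFP or LK2 lay the more often at both classes of p63 sites that lacked control H3K27ac. With 1 library per arm this describes the lists, and H3K27ac of LK2_DNp63, LK2_GFP and LK2 was part of the rule. Sox2 of LK2_GFP lay at 24.5% of already acetylated and 4.41% of newly acetylated sites. A count of sites without Sox2 in LK2_GFP and LK2 is therefore not independent of the rule.

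The 74 sites with Sox2 in LK2_DNp63 were often Sox2 sites of the Sox2 set. A Sox2 peak of HCC95, KNS62 or HCC2814 lay at 55 of them (74.3%, 63.3 to 82.9), against 234 of the 561 sites without Sox2 in LK2_DNp63 (41.7%, 37.7 to 45.8). Their H3K27ac shares in the same lines had overlapping intervals, with 60.8% (49.4 to 71.1) of the 74 against 65.2% (61.2 to 69.1) of the 561 in HCC95, and 48.6% (37.6 to 59.8) of the 74 against 45.1% (41.0 to 49.2) of the 561 in HCC2814. Sox2 peaks of any of the 7 lists lay at 317 newly acetylated sites (49.9%, 46.0 to 53.8), against 44.1% (41.1 to 47.2) of already acetylated and 32.7% (30.4 to 35.1) of unacetylated sites. Of the newly acetylated sites, 1, chr11:61065006-61065486, held one in all 7. Sox2 peaks of 6 lists lay at 3 sites, among them chr3:152719490-152719873, where NCI-H520 had none.

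**Figure D4:**
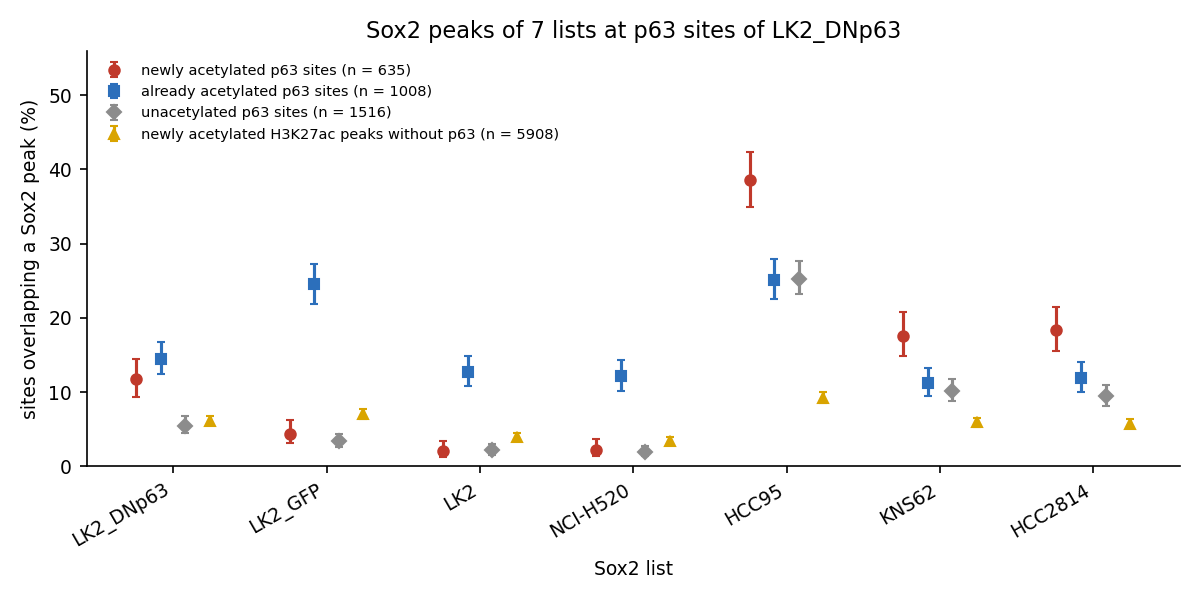
Percentage of sites that overlap a Sox2 peak (vertical axis) for each of 7 Sox2 lists (horizontal axis), by class, with Wilson 95% intervals as bars. Newly acetylated sites are the highest class in HCC95, KNS62 and HCC2814, and lie near the unacetylated sites in LK2_GFP, LK2 and NCI-H520.

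Within a line, newly acetylated sites with a Sox2 peak of that line were the more often acetylated in it. In HCC95, 85.3% (80.3 to 89.2) of sites with Sox2 were acetylated, against 51.8% (46.8 to 56.7) of sites without. In KNS62 the shares were 91.1% (84.3 to 95.1) with Sox2 and 59.3% (55.0 to 63.4) without, and in HCC2814 67.2% (58.3 to 75.1) with Sox2 and 40.7% (36.5 to 44.9) without. In NCI-H520, 10 of the 14 sites with Sox2 were acetylated in at least 1 library (71.4%, 45.4 to 88.3), against 6.76% (5.04 to 9.02) without. The direction was the same in all 4 lines. Unacetylated p63 sites showed it too, with 66.9% (62.1 to 71.4) with Sox2 and 25.9% (23.4 to 28.5) without in HCC95, and already acetylated sites had 88.9% (84.5 to 92.2) with and 64.5% (61.0 to 67.8) without there. No test was made, since 4 lines cannot give a p under 0.05.

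Brn2 peaks were rare or absent. LK2 had one at 6 newly acetylated sites (0.945%, 0.434 to 2.05), against 6.45% (5.09 to 8.14) of already acetylated sites, 1.06% of unacetylated sites and 2.52% of merged regions. NCI-H520 had one at 0 of 635, which allows a share of up to 0.472% by a limit of 3 counts and up to 0.601% by the Wilson interval, against 0.595% (0.273 to 1.29) of already acetylated sites and 0.745% of merged regions. The Brn2 list of NCI-H520 was short, with 1298 peaks, and newly acetylated sites could not be told apart there from already acetylated or unacetylated sites (0.0660%).

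Newly acetylated sites ranked higher in the p63 list than the other classes. The median percentile of the p63 score was 61.7 for newly acetylated sites (quartiles 32.7 and 83.2), 49.7 for already acetylated sites (25.5 and 75.1) and 45.8 for unacetylated sites (22.5 and 70.4). Of the 100 highest-scored p63 sites, 30 were newly acetylated, 47 already acetylated and 23 unacetylated. When the list was divided into 10 equal parts by score, newly acetylated sites made up 32.3% of the highest part and 14.6% of the lowest. Already acetylated sites stayed between 27.2% and 37.7% of each part, while unacetylated sites made up 30.1% of the highest part and 54.3% of the lowest. Median peak widths were 644 bp for newly acetylated and 619 bp for already acetylated sites. The score comes from the 1 p63 library that also chose the sites, and no test was made.

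**Figure D5:**
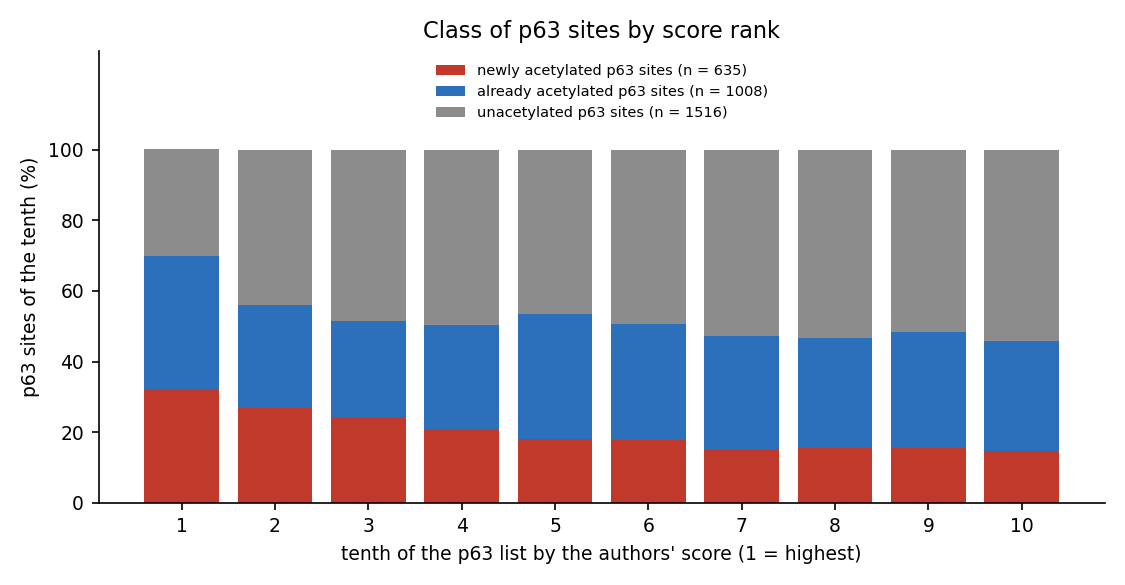
Percentage of p63 sites in each class (vertical axis) for 10 equal parts of the p63 list by the authors' score, from the highest (1) to the lowest (10) on the horizontal axis. The newly acetylated share goes down from 32.3% in part 1 to 14.6% in part 10, and the unacetylated share goes up.

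The newly acetylated site with the highest p63 score, 570, lay at chr5:137840382-137841257 and ranked 4 of all 3159 p63 sites. It was acetylated in exactly HCC95, KNS62, HCC2814, HARA and LC-1/SQSF, and held Sox2 peaks of LK2_DNp63, HCC95, KNS62 and HCC2814. The nearest control H3K27ac peak was 12077 bp away. The same 5 lines, and no other, were acetylated at chr3:189551449-189552478 (score 534), with Sox2 of HCC95, and at chr1:209989053-209990148 (score 524), with no Sox2 peak in any list. They were also the acetylated lines at chr5:150951999-150952737 (score 473), at chr8:49616724-49617479 (score 430), which held Sox2 of LK2_DNp63, HCC95 and HCC2814, and at chr7:23275322-23276268 (score 429), which held Sox2 of HCC95 and KNS62. This combination of 5 lines, the commonest over all sites after acetylation in no line, was therefore found at 6 of the 10 highest-scored sites. Of the other 4, chr12:3566792-3567767 (score 395) was acetylated in 9 lines and chr1:209589198-209589904 (score 374) in 7. The site at chr7:408921-409690 (score 486) lacked LC-1/SQSF among the 5, and chr9:100924922-100925542 (score 482) was acetylated in KNS62 and LC-1/SQSF alone.

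Newly acetylated sites mostly stood alone. With a limit of 50 kb between neighbours they formed 595 clusters, of which 562 held 1 site, 28 held 2, 3 held 3 and 2 held 4. One cluster of 4 spanned chr5:150951999-151008511, where HCC95, KNS62, HCC2814, HARA and LC-1/SQSF were acetylated at every newly acetylated site. The other, chr17:80745109-80834531, was mixed, with 0 to 9 acetylated lines per site and no line at every site. A cluster of 3 at chr1:209584828-209604904 was acetylated at every site in those 5 lines and in SQ-1. At chr9:135730291-135740447, by contrast, HCC95 was acetylated at each of 3 sites and no other line at any. At chr2:28600200-28632445 each of 3 sites was acetylated in 5 lines, with KNS62, HCC2814 and HARA at all of them. None of the 5 clusters held an already acetylated p63 site.

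By chromosome, newly acetylated sites made up between 8.33% of the p63 sites (4 of 48 on chromosome 19 and 2 of 24 on chromosome X) and 39.5% (17 of 43 on chromosome 22). Their nearest control H3K27ac peak lay a median of 17.7 kb away (quartiles 5.68 and 44.1), against 29.1 kb (10.8 and 75.5) for unacetylated sites. Within 1 kb of a control peak lay 50 of them (7.87%), within 5 kb 150 (23.6%) and within 50 kb 493 (77.6%). Just inside the rule, the sites at chr13:23899300-23899976, chr14:54423559-54424205 and chr12:10869062-10869818 had a control peak 0, 1 and 13 bp away. Just outside it, the sites at chr6:45835933-45836385, chr1:180583586-180584350 and chr3:50357583-50358036 overlapped one by 4, 8 and 9 bp and were counted as already acetylated. Genes at these sites are not named, because no annotation of the files' build was used here.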

How the data were processed

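Peaks were deposited by the authors as 1 list per sample, with a position, a name and a score per peak. The deposited score has no stated scale and served for ranks inside 1 list. Alignment used Bowtie2 and the build hg19 (also called GRCh37), as the submitters' processing notes state. Peak names begin with MACS, a program that calls peaks, and the threshold, the version and the part of the inputs in it are not stated in the sources used here. The 16 input samples were not analysed here. Coordinates are 1-based on hg19.

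Of 652792 peaks, 2092 lay outside chromosomes 1 to 22 and X and were left out. Overlaps of 1 bp were counted with Python 3.11.15, numpy 2.4.6 and scipy 1.17.1. The line was the replicate. Shares were compared over 12 lines by permutation of signs and between sets by exact permutation, two-sided, with Benjamini-Hochberg adjustment over 5 tests and a threshold of 0.05. The plan named 4 of these tests, and the last, the excess over new peaks without p63 between the sets, was added later. The code was checked on simulated lists with known overlaps.

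The sites, classes, line sets and tests were chosen with earlier results of these data known. Sites named are the 10 with the highest p63 score, those acetylated in most lines and in none, those with Sox2 in most lists, the 5 largest clusters, and the 3 nearest to either side of the rule. From some of these groups the text gives the first members. Alternatives changed the overlap, p63 threshold, number of H3K27ac peaks, control lists, distance to controls, site definition and lines. LK2_GFP as the 1 control, 1 site per run of neighbours, and the alternatives for Sox2 shares, score ranks and the added test were chosen after seeing the data.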

Additional observations from a re-analysis of the deposited data

Results flagged for a closer look

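One result differed between groups of lines by a test of the difference itself. The excess of newly acetylated p63 sites over new H3K27ac peaks without p63 was 28.3 percentage points larger in HCC95, KNS62 and HCC2814 (n = 3 lines) than in the 8 lines with H3K27ac ChIP alone (exact permutation p = 0.0121, adjusted p = 0.0202 over 5 tests). The excess ran between 23.8 and 34.3 in the 3 lines. HARA and LC-1/SQSF were the lines of the other set above 0. In the LK2_DNp63 list the new peaks without p63 ranked lower (median percentile 22.2 against 41.5). Presence of p63 and rank of the peak cannot be told apart in this excess. The difference was 28.3 also with every new H3K27ac peak without p63 set to the median length of the newly acetylated sites. That length was 644 bp, against a median of 558 bp before, so most of these peaks were lengthened. The difference was 19.1 with an equal number of top H3K27ac peaks from every list. Without HCC95 it was 26.1 and without KNS62 27.5, with an adjusted exact permutation p of 0.0741 in both cases, so the call rests on each of these lines. The unadjusted p of that exact permutation test was 0.0444 in both cases. With a line left out, the smallest p that the test can give is larger than with all lines. The adjusted p ran between 0.0101 and 0.0741 over the alternatives, and the test was added after seeing the data.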

How the results depend on the processing

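The number of newly acetylated sites was 387 with the upper 50% of the p63 list by score and 367 with an equal number of top H3K27ac peaks from every list. It ran from 638 to 665 without 1 LK2 library, and was 683 with LK2_GFP as the 1 control, the derivative whose H3K27ac sample description shares a code with that of LK2_DNp63, and 813 without LK2_GFP. Without 1 line or library at a time, the difference from unacetylated sites ran from 13.8 to 16.2 and that from already acetylated sites from -16.6 to -12.6 percentage points. The difference from new H3K27ac peaks without p63 ran from 5.22 to 9.39 and failed the test under all alternatives (adjusted permutation p 0.0684 to 0.397). Between the sets, the share ran from 30.8 to 40.5 and the excess from 26.1 to 31.6, and the calls ended without HCC95 (30.9 and 26.1) and without KNS62 (30.8 and 27.5). The smallest p that the exact test can give is larger with a line left out, and the cause was not tested. NCI-H520 has no part in the comparison of the sets. Under the other alternatives both calls and those against the other p63 classes held. The Sox2 share of LK2_GFP was 10.4% with equal peak numbers, 8% without LK2_GFP as a control and 7.02% at peak centres, and ran from 4.39% to 5.11% without 1 LK2 library. That of LK2_DNp63 was 15.8% with equal peak numbers and ran from 11.6% to 11.7%, and that of HCC95 was 44.2% in the upper 50% and ran from 38.2% to 38.6%. The median p63 percentile ran from 60.6 to 61.9. The tests over 12 lines pair the classes within each line. By replicate number, no paired analysis was possible because LK2 and NCI-H520, which share the numbers, are different lines and were not tested against each other. Depth is unknown, so an absent peak does not show an absent mark.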
